A study of Rattus norvegicus with 10 samples.

Results

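Taurine, myo-inositol, betaine and sorbitol are small organic osmolytes that cells gather to balance a salty or concentrated surrounding without disturbing their proteins. Slc6a6 carries taurine into the cell, Slc5a3 carries myo-inositol, Slc6a12 carries betaine, and the aldose reductase Akr1b1 makes sorbitol. Nfat5, also called TonEBP, is the transcription factor that drives these genes under osmotic stress. In the liver, taurine is also joined to bile acids before they are secreted, and the liver is the main source of angiotensinogen, the precursor of the angiotensin peptides that regulate salt balance and blood pressure.

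The values described here are those of 9 genes: the carriers and the enzyme above with Nfat5, the salt-responsive kinase Sgk1, angiotensinogen (Agt), its receptor Agtr1a, and Hsd11b1, the enzyme that regenerates active glucocorticoid. All probe sets that the platform's gene table assigned to 1 of these genes alone were taken, which gave 13 probe sets for 8 genes, of 31042 probe sets in all. For Slc6a12 no probe set was assigned, so that betaine transport was not analysed here. The genes were chosen with the diet difference of Slc6a6 already known, so the diet differences of the 13 probe sets are a description and carry no test.

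The study compared livers after noodle diets with and without seasonings. Male rats aged 13 weeks were fed for 30 days, and livers of 5 seasoned and 5 control animals were measured with 1 array each. Seasoned animals (the noodle diet of the labels, numbered 1, 4, 7, 10 and 13) received 30 wt% instant noodle with 26% of energy from fat. Control animals (2, 5, 8, 11 and 14) received that diet lacking only the seasonings, so that noodle and fat were common to both groups. All had water freely, about 60 g of diet per kg body weight and day under paired feeding, and 12 h of light and 12 h of dark. No strain, salt content or composition of the seasonings is given in the labels, and each animal's array code begins with A in every seasoned liver and B in every control, so this letter and the diet cannot be told apart.

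The deposited log2 signals had array medians of 6.47 to 6.48. Of all probe sets, 87.0% were near-constant, meaning an SD at or under 0.01 over the 10 arrays, and 4050 varied. The near-constant ones included the hepatocyte marker Alb, at 14.34 with an SD of 7.2e-05 in seasoned livers and 5.4e-05 in controls. A near-constant signal is therefore not read here as a gene that does not respond to the diet. Brain is the tissue written in the extraction protocol, but the mean level of 7 measured hepatocyte markers was 12.85 to 12.97 in seasoned livers and 12.80 to 12.97 in controls. The mean of 8 brain markers was 6.29 to 6.40 and 6.28 to 6.34, below every array median. The astrocyte marker Gfap was at 6.47, the level of the array medians. The highest brain marker, Mbp, had a mean of 7.26 over the 10 livers, above every array median. Over the whole table limma called 0 of 31042 probe sets between the diets at an adjusted p under 0.05 (0.0%, smallest adjusted p 0.494). The unadjusted count was 1390 (4.48%), and limma with a trended, robust variance gave 0 after adjustment and 1317 unadjusted. In a fit of the varying probe sets alone 13 of 4050 were called (0.321%).

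The region before the start of Slc6a6, whose diet difference was known when the genes were chosen, is shown beside that of Slc5a3, another carrier of an osmolyte. The signals of Slc5a3 were near-constant, and nothing is read from them about its response to the diet. The regions therefore do not set a responding gene against an unresponding one, and a part of their motifs in the diet difference was not tested. Both run over 250 bases up to the base before the annotated gene start, 5′ to 3′ on the strand of the gene, from RefSeq in build GRCr8. Slc6a6 lies at chr4:125752252-125752501 and Slc5a3 at chr11:44799537-44799786, both on the plus strand. Capitals mark TGGAAA, the core of the tonicity element bound by Nfat5, on either strand.
Slc6a6: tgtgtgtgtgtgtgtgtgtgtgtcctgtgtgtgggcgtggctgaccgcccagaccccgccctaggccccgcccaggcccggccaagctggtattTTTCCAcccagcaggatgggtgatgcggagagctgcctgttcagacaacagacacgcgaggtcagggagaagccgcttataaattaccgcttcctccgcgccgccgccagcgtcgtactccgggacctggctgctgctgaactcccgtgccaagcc
Slc5a3: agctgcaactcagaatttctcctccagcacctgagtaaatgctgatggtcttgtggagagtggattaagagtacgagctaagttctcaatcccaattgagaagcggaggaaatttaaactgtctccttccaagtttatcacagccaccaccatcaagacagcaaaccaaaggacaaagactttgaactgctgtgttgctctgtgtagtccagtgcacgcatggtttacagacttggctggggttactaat
The Slc6a6 window held 1 match, on the reverse strand and beginning 156 bases before the start, and the Slc5a3 window held 0. Of 33469 such windows in the table, 19.7% held these letters on either strand. GGGCGG, the GC box bound by Sp1, was present 3 times before Slc6a6 and in 30.5% of windows, and CACGTG, the E-box bound by clock factors, was present 0 times there and in 5.59% of windows. Windows were listed for 5 of the 9 genes, and of the others only 1 of 3 alternative starts of Sgk1 held TGGAAA.

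Slc6a6, the taurine transporter, was higher in all seasoned livers than in any control, on both of its probe sets. On probe set 1374531_at the seasoned livers had log2 signals of 8.59, 8.52, 8.52, 8.55 and 8.45 (animals 1, 4, 7, 10 and 13). The controls were at 6.90, 6.95, 6.78, 7.85 and 6.96 (animals 2, 5, 8, 11 and 14). The seasoned livers lay within a narrow band, while control animal 11 stood well above the other controls and still below every seasoned liver. The means were 8.53 ± 0.05 (SD, n = 5) and 7.09 ± 0.43 (n = 5), a log2 difference of 1.44 ± 0.19 (SE) or 2.70-fold. Between the lowest seasoned liver and control animal 11 there was a gap of 0.60.

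On probe set 1368778_at the seasoned livers were at 7.54, 7.63, 7.61, 7.21 and 7.27, in the same order of animals. The controls were at 6.20, 6.18, 5.97, 6.68 and 6.13. Control animal 11 was again the highest control, and the groups again did not overlap. The means were 7.45 ± 0.20 (SD, n = 5) and 6.23 ± 0.27 (n = 5), with a log2 difference of 1.22 ± 0.14 (SE) or 2.33-fold. In 4 of 5 controls this probe set lay under the array medians, and detection calls were not used here, so the size of its difference is uncertain. Both probe sets were among the 13 varying ones called in the fit of those alone. Neither was among the calls of that fit without seasoned animal 1, 4 or 7 or control animal 14, and only 1368778_at was without control animal 5 or 8. Of the 4050 varying probe sets, 70 (1.73%) were higher in seasoned livers with no overlap between groups, and 2.99% did not overlap in either direction. Since the gene was chosen on this contrast, nothing is read from these counts.

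**Figure D1:**
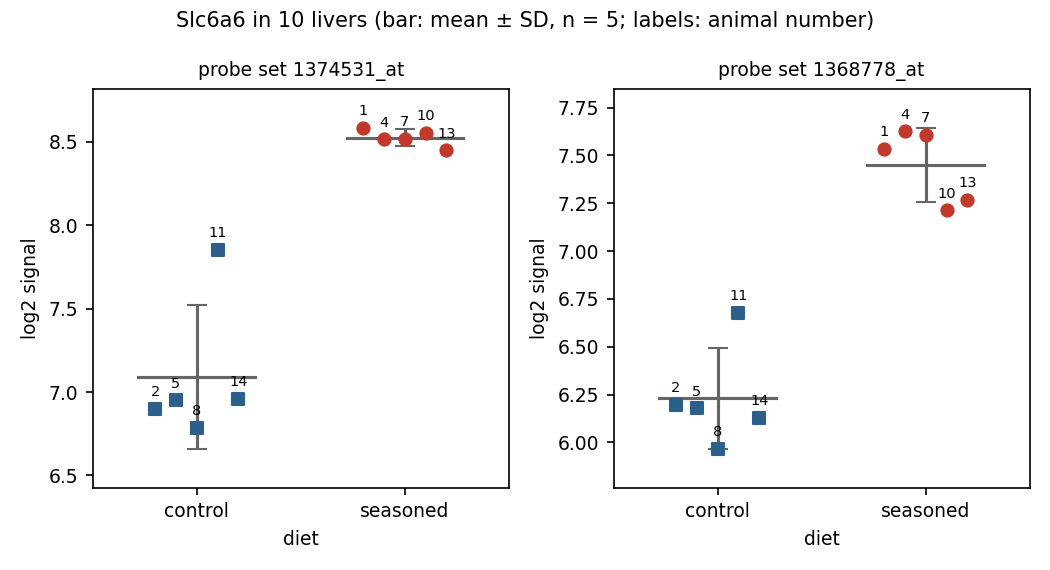
Log2 signal of the Slc6a6 probe sets 1374531_at (left) and 1368778_at (right) in each liver by diet; squares are controls, circles seasoned livers, numbers are animals, and bars give the mean ± SD of 5 livers. Every seasoned liver lies above every control, and control animal 11, at 7.85 and 6.68, is the highest control on both.

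Control animal 11 was 0.96 above the mean of the other 4 controls on probe set 1374531_at, whose own SD was 0.08. On 1368778_at it was 0.56 above them, against an SD of 0.10. Without this animal the diet difference was 1.63 ± 0.04 (SE) on 1374531_at and 1.33 ± 0.11 on 1368778_at. Within animals 1 to 7 and within animals 8 to 14, a parting found in these data and set out below, the diet difference on 1374531_at was 1.62 and 1.30. On 1368778_at it was 1.40 and 0.98. In bulk liver, a change in the number of cells that make a transcript and a change of its amount per cell cannot be told apart.

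Slc5a3 and Akr1b1, the other measured member genes of osmolyte uptake and synthesis, had near-constant signals, from which nothing is read about their response to the diet. Slc5a3, the myo-inositol carrier, was near-constant on both probe sets, at 5.71 on 1379066_at and 6.42 on 1392349_at in every liver, with SDs over the 10 arrays of 0.00013 and 0.00033. Akr1b1, aldose reductase, was at 7.43 on 1367734_at (SD 0.00019) and 6.64 on 1396360_at (SD 0.00016). These 4 probe sets are the near-constant ones, and their diet differences, from -3.3e-05 to 5.1e-05, have no measurable size. Slc5a3 lay under the array medians on both. The smallest SD among the 9 varying probe sets was 0.017, for Nfat5 1398421_at.

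Nfat5, the osmotic stress factor, overlapped fully between the diets. On 1372772_at the seasoned livers were at 8.08, 8.06, 7.97, 7.78 and 7.45 and the controls at 7.998, 8.12, 7.73, 7.68 and 7.97, again by ascending animal number. The lowest liver was seasoned animal 13. The means were 7.87 ± 0.26 (SD, n = 5) and 7.90 ± 0.19, which differed by -0.03 ± 0.14 (SE). The probe set 1398421_at moved within a range of only 0.056 around 8.46, with a diet difference of -0.0019 ± 0.011 (SE), and its lowest liver was the same animal at 8.42. Centred on the diet means, the signals of the Nfat5 probe sets had a Pearson r of 0.894 over the 10 livers, and 0.889 without control animal 11.

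Sgk1, a kinase induced by mineralocorticoids, glucocorticoids and cell shrinkage that raises sodium uptake in epithelia, varied widely within both diets. Seasoned livers were at 8.73, 8.16, 8.58, 9.38 and 8.35, and controls at 8.14, 8.59, 7.998, 8.94 and 9.29. The highest livers were seasoned animal 10 and control animal 14, so the range of 1.38 was spanned by both groups. The means of 8.64 ± 0.47 (SD, n = 5) and 8.59 ± 0.54 differed by 0.05 ± 0.31 (SE).

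Agt was close to equal in the groups. Seasoned livers were at 11.33, 11.28, 11.25, 11.06 and 11.07, and controls at 11.31, 11.44, 11.14, 11.06 and 11.16. The diet difference was -0.03 ± 0.09 (SE), with means of 11.19 ± 0.13 (SD, n = 5) and 11.22 ± 0.15.

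Agtr1a, the type 1a angiotensin II receptor, had similar differences on both probe sets and overlapped on both. On 1369291_at seasoned livers were at 8.71, 8.88, 9.07, 9.07 and 9.04, and controls at 8.498, 8.83, 8.90, 8.92 and 8.99. The means were 8.95 ± 0.16 (SD, n = 5) and 8.83 ± 0.19, a difference of 0.12 ± 0.11 (SE). On 1384240_at the range was 10.14 to 10.52 in seasoned livers and 10.03 to 10.36 in controls, a difference of 0.12 ± 0.10 (SE). The difference on 1369291_at was 0.041 without control animal 2, and that on 1384240_at was 0.073 without seasoned animal 10.

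Hsd11b1, which turns inactive cortisone or its rodent counterpart into the active glucocorticoid, was at 12.25, 12.46, 12.27, 12.31 and 12.28 in seasoned livers. Controls were at 12.04, 12.16, 12.30, 12.23 and 12.26. The lowest 3 livers were controls and the highest was seasoned animal 4, with overlap in between. The means of 12.31 ± 0.09 (SD, n = 5) and 12.20 ± 0.10 differed by 0.11 ± 0.06 (SE). In the lower-numbered set (animals 1 to 7) the difference was 0.22, and in the higher-numbered set 0.03. It was 0.075 without control animal 2.

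**Figure D2:**
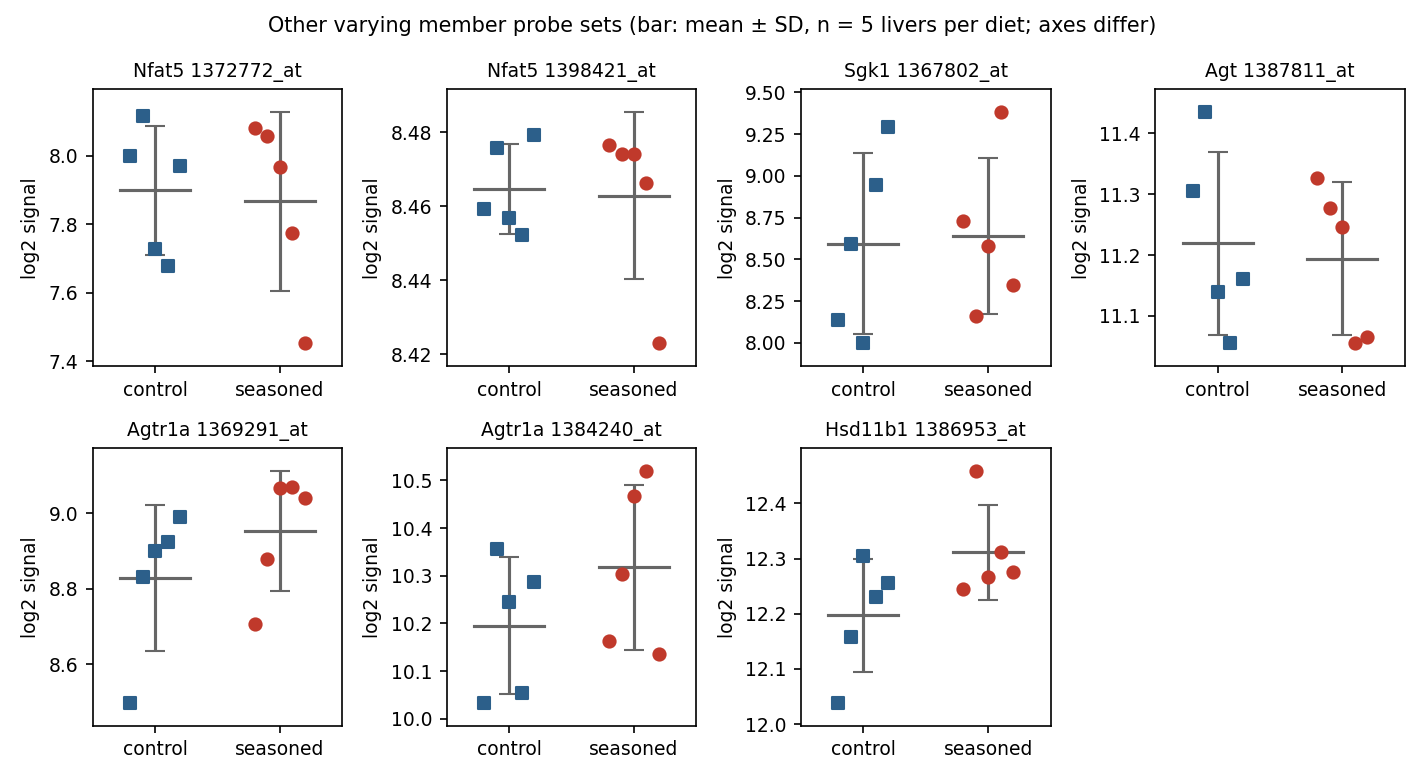
Log2 signal of the 7 varying probe sets of Nfat5, Sgk1, Agt, Agtr1a and Hsd11b1 in each liver by diet, squares for controls and circles for seasoned livers, with the mean ± SD of 5 livers; each panel has its own axis. The groups overlap in every panel, and the axis of Nfat5 1398421_at spans less than 0.1 log2 units.

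Among the 9 varying probe sets, 6 had higher and 3 lower means in seasoned livers, with a median difference of 0.11. For Nfat5 1372772_at (-0.087 to 0.071), Nfat5 1398421_at (-0.0053 to 0.0080), Sgk1 (-0.14 to 0.22) and Agt (-0.066 to 0.029) the sign changed with single livers left out. All 3 probe sets with lower means are among these. Over all 2613 genes with a varying leading probe set, 57.3% had higher means and the median was 0.02.

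The other genes of these pathways were taken from 7 lists of 71 genes, each gene standing by the probe set with its highest mean. Of 63 measured genes, 0 were called by limma over all probe sets or among varying ones. At an unadjusted p under 0.05 there were 7 of the 31 varying genes by limma, where 308 of 2613 varying genes did so in the whole table, and 2 of the 32 near-constant ones. Of the 31 varying genes, 20 had higher means in seasoned livers. None of the differences that follow passed over all probe sets, each with an adjusted p of 0.927 or above by limma, nor among the varying probe sets alone.

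Genes that make and conjugate taurine gave small differences. Cth, the cystathionine gamma-lyase that supplies cysteine, was at 12.05 ± 0.14 (SD, n = 5) in seasoned livers and 11.76 ± 0.22 in controls, a difference of 0.30 ± 0.11 (SE). Cdo1, cysteine dioxygenase, the entry step from cysteine to taurine, differed by -0.07 ± 0.05, and Csad, which makes hypotaurine, by 0.22 ± 0.18. Baat, which joins taurine or glycine to bile acids, was near-constant at 12.54. In this list 6 of 8 genes varied, 4 of them with higher means, and the median difference was 0.14.

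Of 6 measured carriers related to Slc6a6 in sequence or substrate, 5 were near-constant. The one that varied was Slc6a13, a GABA transporter of the liver that also takes up taurine, at 9.38 ± 0.20 (SD, n = 5) and 9.25 ± 0.10, a difference of 0.13 ± 0.10 (SE). It was 0.064 without seasoned animal 1 and 0.21 without seasoned animal 13.

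Among 12 measured genes of the osmotic stress list, 5 varied. Slc38a2, a carrier of neutral amino acids that hypertonicity induces in many cells, was at 8.17, 8.27, 8.14, 8.48 and 7.80 in seasoned livers and at 8.30, 8.53, 8.79, 8.51 and 8.90 in controls. Its difference of -0.44 ± 0.15 (SE) had the opposite sign to that of Slc6a6, and the groups overlapped through seasoned animal 10 and control animal 2. Lrrc8b, a subunit of the volume-regulated anion channel through which cells release taurine, differed by 0.11 ± 0.12, and by 0.0029 without seasoned animal 13. Slc12a2, a salt carrier of cell volume control, and Hspa4l, a chaperone of hypertonic stress, were near-constant.

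In the list of inositol and betaine metabolism, Chdh, which makes betaine from choline, differed by -0.23 ± 0.08 (SE), and Miox, which breaks down myo-inositol, by 0.19 ± 0.12. Of its 10 measured genes 6 varied, 4 with higher means. For Miox the lower-numbered animals gave 0.0038 and the higher-numbered ones 0.41, and leaving out seasoned animal 13 gave 0.11.

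Of 10 measured genes of the kinases and channels of salt transport, 4 varied. Atp1b1, the beta subunit of the sodium pump, was at 8.20 ± 0.19 (SD, n = 5) and 7.92 ± 0.19, a difference of 0.27 ± 0.12 (SE). The lower-numbered animals gave -0.014 and the higher-numbered ones 0.55. Sgk2, a kinase related to Sgk1, differed by 0.24 ± 0.16, with -0.12 and 0.51 in those sets.

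The renin-angiotensin list had 10 measured genes, 7 of them near-constant, among them the angiotensin converting enzyme Ace and the receptors Agtr1b, Agtr2 and Mas1. Enpep, the aminopeptidase that turns angiotensin II into angiotensin III, was at 9.57, 9.41, 9.87, 9.84 and 9.84 in seasoned livers. All controls lay higher, at 9.88, 10.05, 9.93, 9.92 and 10.02, a difference of -0.25 ± 0.10 (SE). Groups that did not overlap in this direction were found in 1.26% of varying probe sets. Mme, neprilysin, which can release angiotensin-(1-7) from angiotensin I, differed by 0.64 ± 0.26, with 1.02 in the lower-numbered animals and 0.21 in the higher-numbered ones. Its control mean of 6.18 ± 0.26 (SD, n = 5) lay under the array medians, so no fold is given.

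In corticosteroid metabolism, Hsd11b2, which inactivates glucocorticoid and works opposite to Hsd11b1, was at 7.34 ± 0.35 (SD, n = 5) and 6.85 ± 0.29, a difference of 0.49 ± 0.20 (SE). Nr3c1, the glucocorticoid receptor, was at 9.23 ± 0.22 and 9.53 ± 0.25, a difference of -0.31 ± 0.14. The mineralocorticoid receptor Nr3c2 was near-constant at 6.68.

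**Figure D3:**
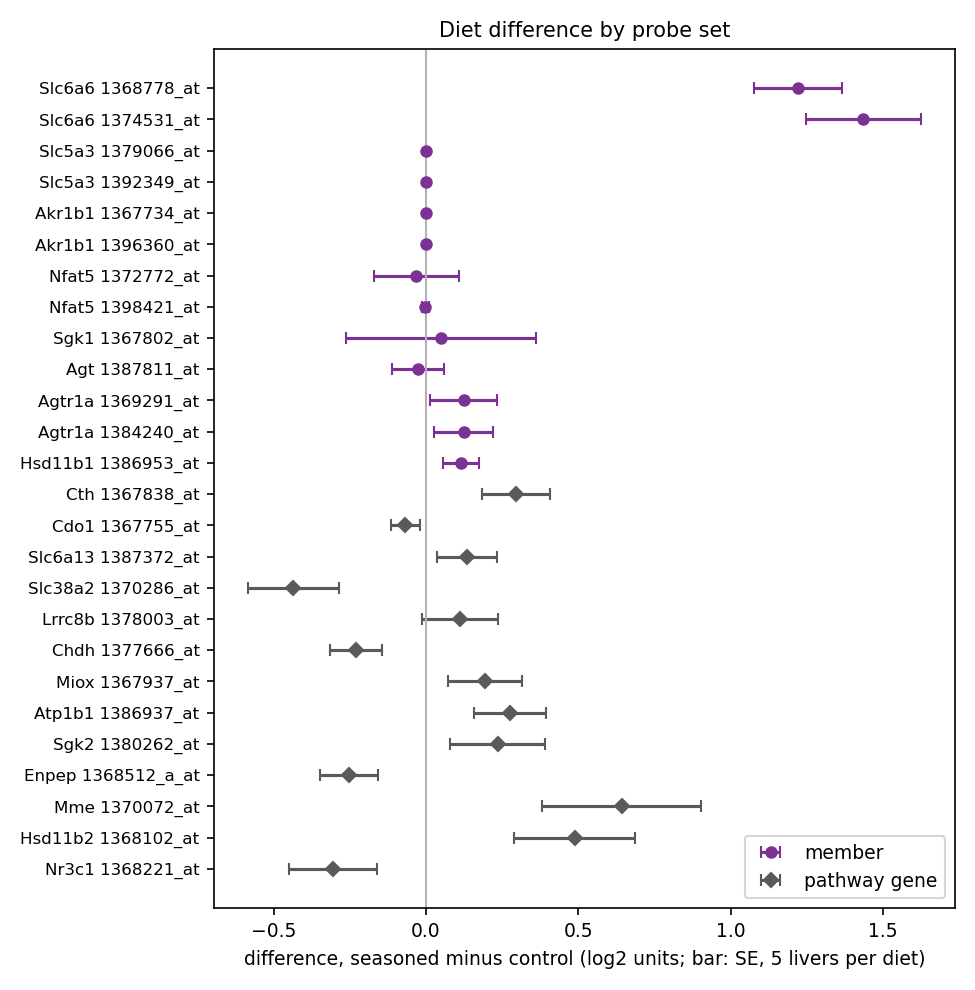
Difference of the mean log2 signal, seasoned minus control, for the 13 member probe sets (circles) and 13 pathway genes (diamonds); bars are the SE over 5 livers per diet. Both Slc6a6 probe sets lie above 1, and all other differences lie between -0.44 and 0.64.

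Whether the other genes followed Slc6a6 from liver to liver does not use the diet contrast and was tested on values centred on their diet's mean. There were 9 relations of Slc6a6 1374531_at, 8 with the other varying probe sets and 1 with Dbp, an output gene of the circadian clock that separates these diets. Dbp was added because earlier work on these data had found control animal 11 near the seasoned livers in clock genes. The p-values of its relation are therefore not independent of that choice. None passed after adjustment over the 9 relations. With its own second probe set the Pearson r was 0.796 (exact within-diet permutation p = 0.0219, adjusted p = 0.197) and the Spearman rho, with ranks taken within the diets, was 0.20 (exact p = 0.640, adjusted p = 0.823). With Dbp r was -0.844 (exact p = 0.0469, adjusted p = 0.211) and rho was -0.25 (exact p = 0.544, adjusted p = 0.816). Without control animals 11 and 8, the 2 livers farthest from the median of Slc6a6, these r were 0.181 and -0.297. Leaving out control animal 8 alone gave 0.755 and -0.836, and leaving out control animal 11 alone gave 0.417 and -0.259, so both relations rest on control animal 11. Control animal 11 had a Dbp signal of 7.28, against 9.08 to 9.43 in the other controls and 5.94 to 7.05 in seasoned livers. Its part in the diet difference of Slc6a6 is given by the values without it above.

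Sgk1 had the highest rank correlation with Slc6a6, a rho of 0.85 (exact within-diet permutation p = 0.00931, adjusted p = 0.0837), with an r of 0.399 (exact p = 0.412, adjusted p = 0.777). Its r was 0.621 without control animals 11 and 8, and 0.687 without control animal 11 alone. The r of Slc6a6 with Nfat5 1372772_at was -0.242 over the 10 livers (exact p = 0.586, adjusted p = 0.777), and rho was 0.15 (exact p = 0.735, adjusted p = 0.827). Without control animal 11 this r was 0.731 (exact p = 0.0285, adjusted p = 0.128). For Agt, Agtr1a, Hsd11b1 and Nfat5 1398421_at the r lay between -0.370 and 0.172, with adjusted p from 0.777 to 0.905. Without control animal 11, r was 0.720 for Nfat5 1398421_at (exact p = 0.00972, adjusted p = 0.0875). It was then -0.289 to 0.490 for Agt, Agtr1a and Hsd11b1.

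**Figure D4:**
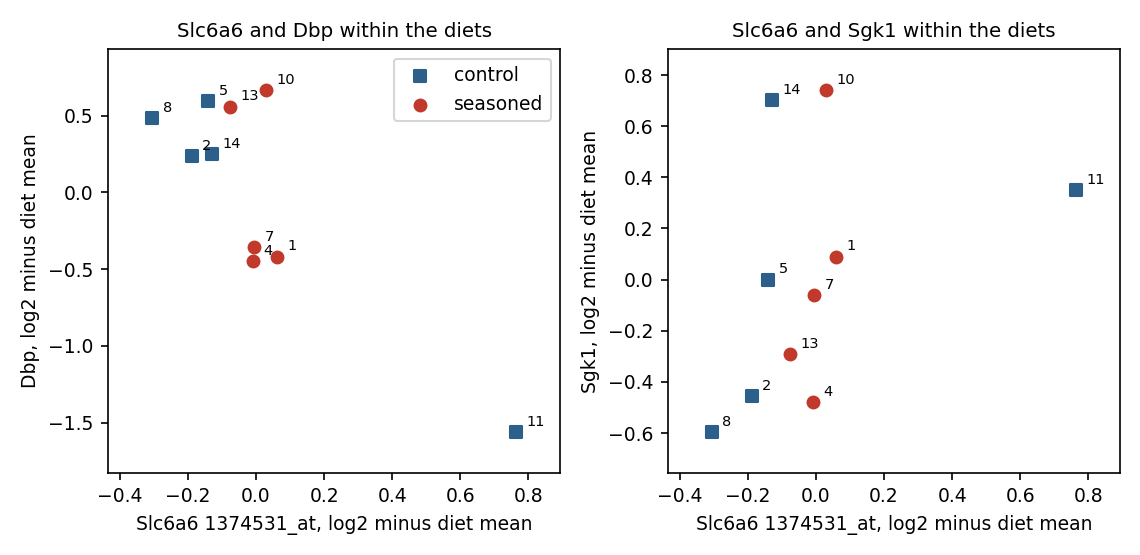
Log2 signal of Dbp (left) and Sgk1 (right) against Slc6a6 1374531_at, each minus the mean of its diet, in 10 livers; squares are controls, circles seasoned livers, and numbers are animals. Control animal 11 lies far to the right in both, and the r of -0.844 with Dbp and of 0.399 with Sgk1 became -0.297 and 0.621 without animals 11 and 8.

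The genes whose pattern within the diets was most like that of Slc6a6 1374531_at were sought among 3239 varying probe sets of 1 gene, by Pearson r over the 10 livers after centring. They were Cimip4 (r = 0.968), Kynu (0.885), Npas2 (0.843), Cdkn1a (0.818) and Col5a2 (0.809). The most opposite were Shld2 (-0.970), Ppara (-0.929) and Dcun1d2 (-0.928). Without control animal 11, r was 0.656 for Npas2, a clock activator, 0.130 for Kynu and 0.143 for Cdkn1a, -0.520 for Cimip4 and -0.530 for Col5a2. It was -0.739 for Shld2, 0.096 for Ppara and -0.496 for Dcun1d2. These likenesses are a description over 10 livers that share 1 outlying control, and the second probe set of Slc6a6 would have ranked 9 among them.

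The values were also set out by animal number, as the lower-numbered livers (1 to 7, of which 3 seasoned) and the higher-numbered ones (8 to 14, of which 2 seasoned). This parting was found in these data, is not named in the labels and follows the position number in the array codes within each diet. The differences between the sets are therefore a description with no test. The counts past an adjusted p that follow come from the same values, so they too are a description and test nothing. With diet in the model, 1016 of all probe sets (3.27%) had an adjusted p under 0.05 by limma, and 9.56% of the varying ones did so and were lower in animals 8 to 14. Among the 9 varying probe sets here 1 did, that of Agt, so the share is near the background. It did not without seasoned animal 1, 4, 10 or 13 or control animal 5. Of the near-constant ones Akr1b1 1367734_at did, with a difference of -0.00032 that has no measurable size.

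Agt was at 11.25 to 11.44 in animals 1 to 7 and 11.06 to 11.16 in animals 8 to 14, with no overlap. Non-overlap in this direction was found in 16.1% of varying probe sets. The difference was -0.24 ± 0.03 (SE, 5 livers per set), and the mean was lower in both diets, from 11.28 to 11.06 in seasoned livers and from 11.37 to 11.12 in controls. Nfat5 1372772_at differed by -0.34 ± 0.09 and Agtr1a 1369291_at by 0.22 ± 0.09. The Slc6a6 probe sets 1374531_at and 1368778_at differed by 0.12 ± 0.20 and -0.14 ± 0.15. With the sets as a block, the diet difference of Agt was -0.07 ± 0.03 (SE) and that of Slc6a6 1374531_at 1.46 ± 0.20.

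**Figure D5:**
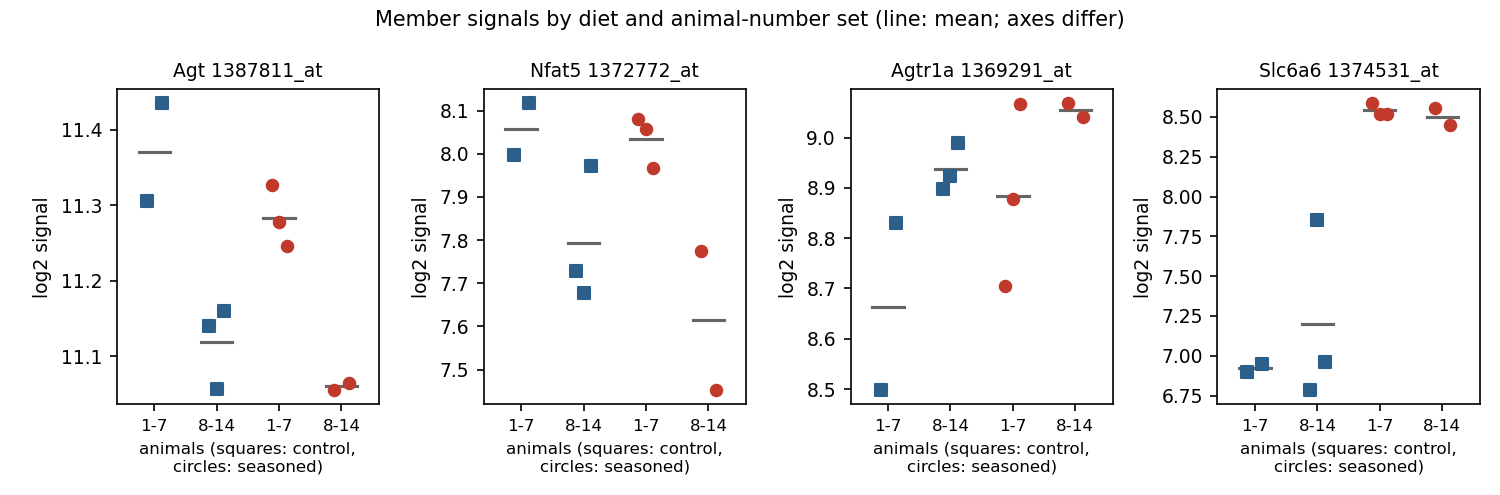
Log2 signal of Agt, Nfat5 1372772_at, Agtr1a 1369291_at and Slc6a6 1374531_at in each liver by diet (squares control, circles seasoned) and animal-number set (1-7, 8-14), with the mean as a line; each panel has its own axis. Agt is lower in animals 8 to 14 in both diets, whereas Slc6a6 1374531_at follows the diet in both sets.

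Markers of zones and other cell types were looked at beside these values. Of 61 measured marker genes in 10 lists, 0 were called by limma over all or varying probe sets, with 3 of 28 varying ones and 1 near-constant one under an unadjusted p of 0.05. The mean level of 7 pericentral hepatocyte markers was 8.68 to 9.11 in seasoned livers and 8.76 to 8.97 in controls, and that of 7 periportal markers was 10.79 to 11.21 and 10.97 to 11.44. Among the periportal markers Sds, serine dehydratase, differed by -2.03 ± 0.45 (SE; adjusted p = 0.634 by limma over all probe sets), while the other 6 differed by -0.17 to 0.18. Of the varying markers, 4 of 5 pericentral and 5 of 7 periportal ones had lower means in seasoned livers, while 5 of 6 Kupffer cell and macrophage ones had higher means. Over all 10 lists 13 varying markers had higher and 15 lower means. Of all 2613 varying genes 57.3% had higher means. The part of the markers in the difference of Slc6a6 was not tested.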

How the data were processed

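Biotin-labelled cRNA from 100 ng of total RNA per liver was hybridised to 1 array each, per the labels' protocols. The authors deposited 1 log2 signal per probe set and array. The summary and normalization methods are not given in the sources used here, and the log base was read from the values (4.79 to 14.34). Of 31099 probe sets, 57 controls were left out. The platform's gene table named 20826 with 1 gene and 436 with several, and 9780 were unnamed there. The GRCr8 gene table gave current symbols for 20758 of them, matched on gene identifier.

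Seasoned and control livers were compared with limma 3.58.1 (lmFit, eBayes, two-sided) in R 4.3.3 over all 31042 probe sets, without covariates and with Benjamini-Hochberg adjustment, called at an adjusted p under 0.05. P-values measure the spread between rats. Relations within the diets used exact permutation over 14400 rearrangements. The number of arrays limits the precision. The fits were tested on simulated data with independent normal residuals. These held no outlying liver and no difference between animal sets, so they do not show how the calls depend on either. Genes, lists, the SD limit of 0.01 and the tests were chosen with earlier results of these data known. Named were all member probe sets, per pathway list the called genes or else the 2 varying genes with the smallest p, and the 5 most like and 3 most opposite genes to Slc6a6. Csad, Baat, Slc12a2, Hspa4l, Ace, Agtr1b, Agtr2, Mas1 and Nr3c2 were picked with their values in view. So were the markers Alb, Gfap, Mbp and Sds, and the comparison of animals 1 to 7 with 8 to 14.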

Additional observations from a re-analysis of the deposited data

Results flagged for a closer look

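The 9 varying member probe sets, Dbp and the 13 pathway genes in the plot of diet differences were screened for livers set apart. Other varying genes named above were not screened. These were Csad, the varying markers and the genes most like or most opposite to Slc6a6. Of the 46 screened diet groups of 5 livers, 3 had 1 liver set apart, by a distance to the next liver of more than 0.71 of the range of its group. Chance gives about 1 in 20. Control animal 11 was high for Slc6a6 1374531_at (ratio 0.8356) and low for Dbp (0.8336). Seasoned animal 13 was low for Nfat5 1398421_at (0.8109), a probe set whose whole range over the 10 livers was 0.056 log2 units.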

How the results depend on the processing

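The diet difference of Slc6a6 kept its sign in every setting run. Since its groups did not overlap, leaving out livers or splitting them by animal number could not turn that sign. The gene was also chosen on this contrast, so its calls and diet differences here are a description. Leaving out 1 liver at a time gave 1.36 to 1.63 on 1374531_at and 1.15 to 1.33 on 1368778_at, which moved beyond the replicate SD only within animals 8 to 14 (0.98). Calls depended on the setting. Over all probe sets 0 were called, against 13 among varying probe sets, 255 with arrays centred on the median of varying probe sets, which gives near-constant probe sets an artificial spread, 22 among varying ones with the animal-number block, 0 to 10 with 1 liver left out (10 without control animal 11), and 0 to 84 among varying ones with 1 left out (84 without control animal 11, 21 without seasoned 10, 18 without control 2, 8 without seasoned 13, 3 without control 5, 2 without control 8, and 0 without the other 4 animals). Welch's statistic called 0, with 1139 unadjusted. Both Slc6a6 probe sets (2 member probe sets) were called with varying ones, with that centring and with that block, and 0 to 2 with 1 liver left out. Among varying probe sets neither was called without seasoned animals 1, 4 or 7 or control animal 14. Pathway genes called went from 0 to 2 with centring, Slc38a2 (-0.44, adjusted p = 0.0437 by limma) and Hsd11b2 (0.48, adjusted p = 0.0212). The labels do not say which seasoned and control animals were partners in the paired feeding, so no analysis on known pairs was possible. An assumed pairing of neighbouring numbers called 0.

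Correlations with Slc6a6 turned sign for Nfat5 1398421_at with quantile normalization (0.557) and centring (0.746), for Agtr1a 1384240_at with centring (0.052), and, centred on diet and animal set, for Agtr1a 1369291_at (-0.025) and Hsd11b1 (-0.233). With 1 liver left out they ran from -0.453 to 0.731 and -0.436 to 0.720 for the Nfat5 probe sets 1372772_at and 1398421_at, -0.512 to 0.490 for Agt, -0.202 to 0.257 and -0.446 to 0.238 for the Agtr1a probe sets 1369291_at and 1384240_at, and -0.289 to 0.308 for Hsd11b1; the adjusted p stayed over 0.05 in all. Between the animal sets Nfat5 1398421_at turned to 0.041 with quantile normalization and 0.098 with centring, and Agtr1a 1384240_at ran from -0.068 to 0.080 with 1 liver left out. The animal-set results and the fits of varying probe sets with a liver left out were added after seeing the data. The cause of these changes was not tested.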
